A study of Caenorhabditis elegans with 2 samples.

Results

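The genes described here are the translation factors and aminoacyl-tRNA synthetases of Caenorhabditis elegans, examined for regions bound in a chromatin immunoprecipitation sequencing (ChIP-seq) study of the transcription factor UNC-30. Members were the protein-coding genes whose symbols begin with eif- or eef-, or consist of a letter, "ars-" and a number. The rule found 63 of the 19985 protein-coding genes of the WBcel235 annotation, and 19922 genes were left as other genes. The members comprise 32 synthetase genes, and 31 factor genes: 11 subunits of initiation factor eIF3, 5 subunits of eIF2B, 3 subunits of eIF2, 6 other initiation factors and 6 elongation factors.

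The study holds 1 group, UNC-30 ChIP in L1 larvae, with 2 libraries that are labelled biological replicates. The animals were whole larvae of strain OP395, male and female mixed, with the genotype unc-119(tm4063) III; wgIs395. The integrated transgene wgIs395 encodes a C-terminally tagged UNC-30::GFP-FLAG, and the age of the animals is given as unknown. Both libraries come from this 1 line. No treatment is named and no other condition was analysed here, so every comparison sets genes against genes within the same libraries and no test between samples can be made.

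UNC-30 is a homeodomain protein of the Pitx family that specifies the D-type GABAergic motor neurons, which are few among the cells of a larva. Initiation factors bring the ribosome and the initiator tRNA to the start codon, elongation factors carry charged tRNAs to the ribosome and move it along the message, and aminoacyl-tRNA synthetases join each amino acid to its tRNA. All dividing and growing cells use these proteins, and synthetases numbered -2 in the worm often serve the mitochondria.

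A region was assigned to a gene when its summit lay between 2000 bp upstream and 500 bp downstream of the gene's 5′ end. Among the members whose highest promoter region ranked within the 1000 highest of the pooled list, eif-2Bdelta and eif-2Bgamma lie on chromosomes V and II, and both carry a motif that was counted. Both genes code for subunits of eIF2B, the exchange factor that recharges eIF2 with GTP. The windows below reach 100 bp to each side of the region's summit, on the plus strand of ce11. At eif-2Bdelta the window is chrV:9513435-9513635, and the capitals mark TAATCC, the core motif bound by Pitx-type homeodomains, at bases 9513436 to 9513441 of the plus strand. The motif's centre is 96 bp from the summit, close to the edge of the window. At eif-2Bgamma the window is chrII:6967760-6967960, and the capitals mark CGCGCA on the plus strand (bases 6967778 to 6967783) together with ATGCGC on the minus strand (bases 6967779 to 6967784), which overlap. Their centres lie 79 and 78 bp from the summit.
eif-2Bdelta: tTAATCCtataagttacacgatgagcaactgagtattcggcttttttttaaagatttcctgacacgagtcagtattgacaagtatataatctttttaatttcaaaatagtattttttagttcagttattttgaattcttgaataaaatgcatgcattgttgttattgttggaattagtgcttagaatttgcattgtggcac
eif-2Bgamma: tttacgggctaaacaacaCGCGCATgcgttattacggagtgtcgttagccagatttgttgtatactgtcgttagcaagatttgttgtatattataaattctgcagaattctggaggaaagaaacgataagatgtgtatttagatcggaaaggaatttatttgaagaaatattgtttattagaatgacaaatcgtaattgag

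CGCGCA stood within a few bases of the summit at eif-3.B, and ATGCGC at eif-3.D, and both genes code for eIF3 subunits. These sites, and that of dars-1, the cytosolic aspartyl-tRNA synthetase, were chosen for display after their values were seen. Each is printed as 30 bases of the plus strand of ce11 with the motif in capitals. The CGCGCA of eif-3.B lies at bases 14795149 to 14795154 of chromosome II, 4 bp from the summit. The ATGCGC of eif-3.D lies at bases 8971805 to 8971810 of chromosome III, also 4 bp from the summit. The ATGCGC of dars-1 lies at bases 9491315 to 9491320 of chromosome III, 92 bp from the summit, and a CGCGCA on the other strand overlaps it.
eif-3.B: tatttgaaattcCGCGCAaatctcatggac
eif-3.D: tttaatcgagaaATGCGCaaggtacacgaa
dars-1: gatgaagtgtgtATGCGCgtcagttctgat

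Each of the 3 deposited candidate lists, from replicate 1, from replicate 2 and from both pooled, holds 30000 regions of ce11. Every region carries a signal, the authors' own measure of peak height on a scale not given in the sources used here, so values were ranked within a list and not compared in size between lists. The pooled signals ran between 113 and 10.7, with 25.3 at rank 1000 and 18.9 at rank 5000. Every thresholded peak was among the top regions of the pooled list, with none left out between them, and the lowest had a signal of 39.2. The replicate 2 list includes 10 mitochondrial regions. The lists hold no read counts, so library depth is unknown. Chromatin came from whole larvae, so binding in a few cells and weak enrichment in many cannot be told apart.

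The share of translation promoters with a high-ranking region was larger than the share of other promoters, and in the pooled list up to rank 5000 it was carried mainly by the initiation and elongation factors. Of the 63 members, 1 had a thresholded peak (1.59%), against 0.668% of other genes, a count too small to compare the shares. Among the 1000 highest regions the count was 7 of 63 (11.1%), against 3.95% of other genes. Among the 5000 highest it was 20 of 63 (31.7%), against 14.1%. With all 30000 candidates counted it was 43 of 63 (68.3%), against 56.2%. Relative to other genes, the members' share was thus larger within the upper ranks than over the whole list. No test was applied to these shares, because the genes are not replicates and share the same 2 libraries.

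The replicate lists gave the same order at 1000 regions and beyond, while at the very top the counts were too small to give an order. Among as many top regions as there are thresholded peaks, 0 of 63 members had a region in replicate 1, against 0.572% of other genes. In replicate 2 the count was also 0 of 63, against 0.517%. With 1 member in the pooled list and 0 in each replicate list, no order can be read at the very top. At the 1000 highest regions, replicate 1 gave 7 of 63 members (11.1%), against 3.82% of other genes. Replicate 2 gave 4 of 63 (6.35%), against 3.23%. The share of members was therefore above that of other genes in both libraries at that depth, by a smaller margin in replicate 2. At 5000 regions, replicate 1 gave 16 members (25.4%), against 14.2% of other genes, and replicate 2 gave 15 (23.8%), against 13.7%. At 30000 regions, replicate 1 gave 44 members (69.8%), against 56.3%, and replicate 2 gave 45 (71.4%), against 56.2%.

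Factors and synthetases parted by rank. Of the 31 factor genes, 7 had a pooled region within the 1000 highest (22.6%) and 15 within the 5000 highest (48.4%). Of the 32 synthetase genes, 0 had one within the 1000 highest and 5 within the 5000 highest (15.6%), near the 14.1% of other genes. Over all 30000 candidates the order was the other way, with 20 factors (64.5%) and 23 synthetases (71.9%). In the replicate 1 list the 1000 highest regions took in 6 factors and 1 synthetase, tars-1. In the replicate 2 list they took in 4 factors and 0 synthetases. At 5000 regions the gap was narrower than in the pooled list, with 9 factors (29.0%) and 7 synthetases (21.9%) in replicate 1, and 10 factors (32.3%) and 5 synthetases (15.6%) in replicate 2.

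**Figure D1:**
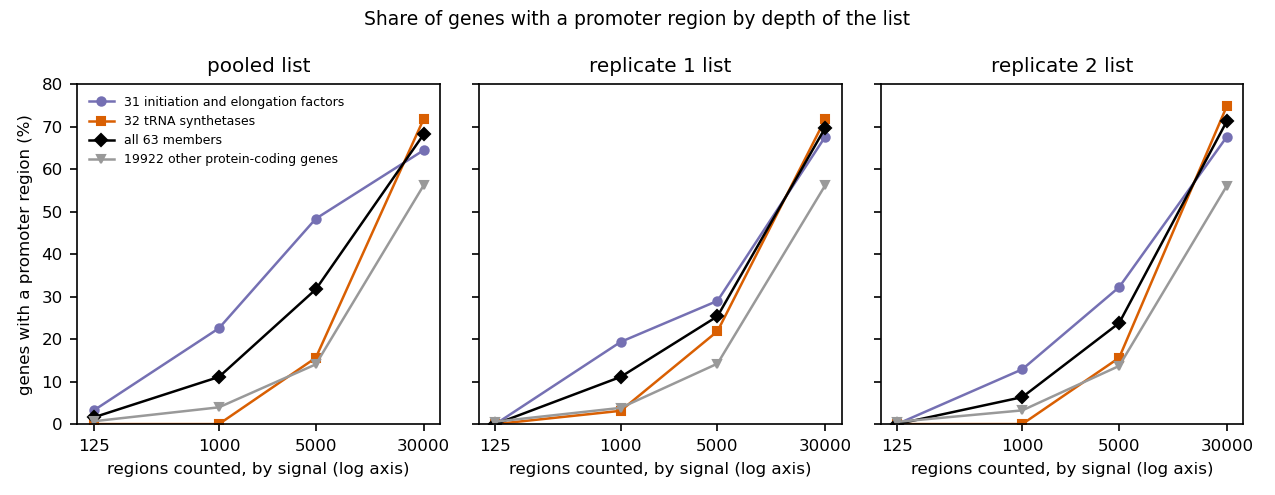
Percentage of genes with a region in the promoter window (vertical axis) among the highest regions (horizontal log axis: the number of thresholded peaks, 1000, 5000 and 30000) of the pooled, replicate 1 and replicate 2 lists. Lines show the 31 factors, the 32 synthetases, all 63 members and the 19922 other genes; at 1000 pooled regions the factors stand at 22.6% and other genes at 3.95%, while the synthetases stand at 0.

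Among the eIF3 subunits, which form the scaffold on the small ribosomal subunit for initiation, eif-3.C carried the highest region of any member and the only thresholded one. Its pooled signal was 42.5 at rank 90, 236 bp upstream of the 5′ end. In replicate 1 its signal was 25.0 at rank 149, at the same position. In replicate 2 it was 12.8 at rank 3488, 235 bp upstream. The summits of the 3 lists thus fell on the same spot, and the site was far higher in the order of replicate 1 than in that of replicate 2. The pooled region spans bases 9979720 to 9980075 of chromosome I in ce11. Its summit lies between protein-coding genes and in no other protein-coding gene's promoter window. The q-value the authors give for it in the pooled list is 0.117. Within 100 bp of its summit it holds GACGCA and CGCGCA.

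The other eIF3 subunits ranged widely. The region of eif-3.J, a loosely bound subunit, had a pooled signal of 27.5 at rank 624, with 12.7 in replicate 1 (rank 3624) and 12.7 in replicate 2 (rank 3697). Its pooled summit lies 1042 bp upstream, within the 3′ untranslated region of slc-25A46, and both replicates placed a summit within 100 bp of it. For eif-3.H the pooled signal was 21.8 at rank 2418, 158 bp downstream of the 5′ end, and the replicate 2 signal was 21.4 at rank 150, while replicate 1 had no promoter region. Of the 2 libraries, replicate 2 alone thus listed that region. For eif-3.B the pooled signal was 21.7 at rank 2448, with 14.7 at rank 1667 in replicate 2 and again no promoter region in replicate 1. The pooled ranks of eif-3.G, eif-3.I and eif-3.E were 3532, 3854 and 8731. For eif-3.D the pooled rank was 17891, with rank 1733 in replicate 1 and 11587 in replicate 2. Of the 11 subunits, 8 had a pooled region (72.7%), against 56.2% of other genes. In replicate 1 the count was 6 (54.5%), against 56.3%, and in replicate 2 it was 7 (63.6%), against 56.2%. In the promoter of eif-3.F a region stood in the replicate 2 list only, at rank 20077, and eif-3.K and eif-3.L had none in any list.

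The eIF2B complex, whose activity sets how much eIF2 is ready for initiation, had 2 of 5 subunits within rank 1000 of the pooled list (40%), against 3.95% of other genes. The count was also 2 of 5 in replicate 1, and 0 of 5 in replicate 2. The pooled signal of eif-2Bdelta was 33.2 at rank 236, 289 bp upstream. In replicate 1 it was 18.1 at rank 600, 282 bp upstream. In replicate 2 it was 16.0 at rank 1040, but with the summit 127 bp upstream, outside the 100 bp taken as a match. So both libraries had a high region in this promoter, and only replicate 1 placed it where the pooled list does. The pooled region spans bases 9513357 to 9513712 of chromosome V, with a GC content of 28.9% around the summit.

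The gene eif-2Bgamma, whose product is the partner of the catalytic epsilon subunit, had a pooled signal of 26.6 at rank 747, 212 bp upstream, in a region spanning bases 6967682 to 6968037 of chromosome II. Its signal was 18.3 at rank 558 in replicate 1 and 8.49 at rank 15950 in replicate 2, with summits 173 and 205 bp upstream. The site was shared by both libraries and stood low in replicate 2. For eif-2Balpha the pooled signal was 21.2 at rank 2797, 304 bp upstream, in a region also in the promoter windows of mut-7 and ZK1098.9. The highest replicate 1 signal of eif-2Balpha was 11.2 at rank 6233, 350 bp downstream. Replicate 1 also listed a region at the pooled summit, with a signal of 6.37 at rank 28971, and replicate 2 had no region. Of the remaining subunits, eif-2Bbeta appeared only in the replicate lists, at ranks 25362 and 17757, and eif-2Bepsilon in no list.

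The eIF2 subunits, which form the complex that carries initiator tRNA, ranked lower than the highest eIF2B subunits. For eif-2gamma, the subunit that binds GTP, the pooled signal was 21.9 at rank 2352, 210 bp upstream, with 8.60 at rank 14814 in replicate 1 and 9.65 at rank 10896 in replicate 2. For eif-2alpha, the subunit phosphorylated under stress, the pooled signal was 17.3 at rank 7503. Its summit lies 1940 bp upstream, and the region is also in the promoters of phb-1, rla-1 and Y37E3.8. A region of eif-2beta appeared in the replicate 2 list alone, at rank 29657.

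Of the other initiation factors, eif-4A3 codes for an RNA helicase of the exon junction complex, and its region lay inside the gene. Its pooled signal was 29.9 at rank 385, 128 bp downstream of the 5′ end in an intron. The replicate 2 signal was 16.2 at rank 954, 124 bp downstream, and replicate 1 had no region. The pooled region is also in the promoter windows of vps-20 and Y65B4A.2, and eif-4A3 is the nearest of these genes.

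The gene eif-6, which codes for a factor that binds the large ribosomal subunit and keeps it from joining the small one, was the only member within the 1000 highest regions of both replicate lists. Its pooled signal was 28.9 at rank 460, 466 bp upstream. In replicate 1 it was 17.1 at rank 812, but 1935 bp upstream. In replicate 2 it was 21.4 at rank 149, 441 bp upstream. The 2 libraries thus had their highest eif-6 regions at different sites. The pooled region is nearer to the 5′ end of pbs-2, a proteasome subunit gene, from which it lies 200 bp upstream, and it is also in the promoter windows of tba-2 and gale-1. A further pooled region, with a signal of 30.3 at rank 366, lies 2028 bp upstream of eif-6, just outside the window.

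The other 4 initiation factors had lower pooled regions or none. For eif-1, which codes for a start-site selection factor, the pooled signal was 10.8 at rank 29680, the lowest of any member with a region. For eif-1.A a region was present in the replicate 2 list only, at rank 4110. For eif-2D the pooled signal was 14.8 at rank 13193, and another pooled region of rank 946 lies 2449 bp upstream, outside the window. For eif-2A a region was present in the replicate 1 list only, at rank 16018.

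Elongation factors had a pooled region in 3 of 6 cases (50%), against 56.2% of other genes, and a region in 5 of 6 (83.3%) in each replicate list. The gene eef-2, coding for the GTPase that moves the ribosome by a codon, had a pooled signal of 28.8 at rank 472, 66 bp upstream. Its signal was 13.6 at rank 2658 in replicate 1, 48 bp upstream, and 10.1 at rank 9309 in replicate 2, 72 bp upstream. The 3 summits lie close together, next to the 5′ end, and the region is also 199 bp upstream of clsp-1.

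The paralogs eef-1A.1 and eef-1A.2 code for the factor that delivers charged tRNA to the ribosome, and their regions differed in place and in support. For eef-1A.2, on chromosome X, the pooled signal was 22.6 at rank 1923, 472 bp upstream. Its replicate 1 signal was 21.7 at rank 267, 451 bp upstream, and its replicate 2 signal was 15.8 at rank 1103, 726 bp upstream. Both libraries held a high region there, at different summits. For eef-1A.1, on chromosome III, the pooled signal was 19.4 at rank 4397, 572 bp upstream, in a coding exon of rfc-4, whose 5′ end is nearer. Its replicate 1 signal was 9.72 at rank 10279, 1517 bp upstream, and its replicate 2 signal was 16.1 at rank 977, 1216 bp upstream. Neither of these highest regions lies at the pooled site, where the replicates list lower regions, at rank 11285 in replicate 1 and 2730 in replicate 2.

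The subunits of the exchange factor for eEF1A were in none of the pooled regions. For eef-1G the replicate 1 signal was 17.4 at rank 728, 49 bp upstream, and the replicate 2 signal was 9.25 at rank 12449, 31 bp upstream. The nearest pooled summit was 14557 bp from the 5′ end, although both libraries list a region next to the 5′ end. For eef-1B.2 regions stood at rank 12625 in replicate 1 and 14882 in replicate 2, at separate sites, and eef-1B.1 had none in any list.

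**Figure D2:**
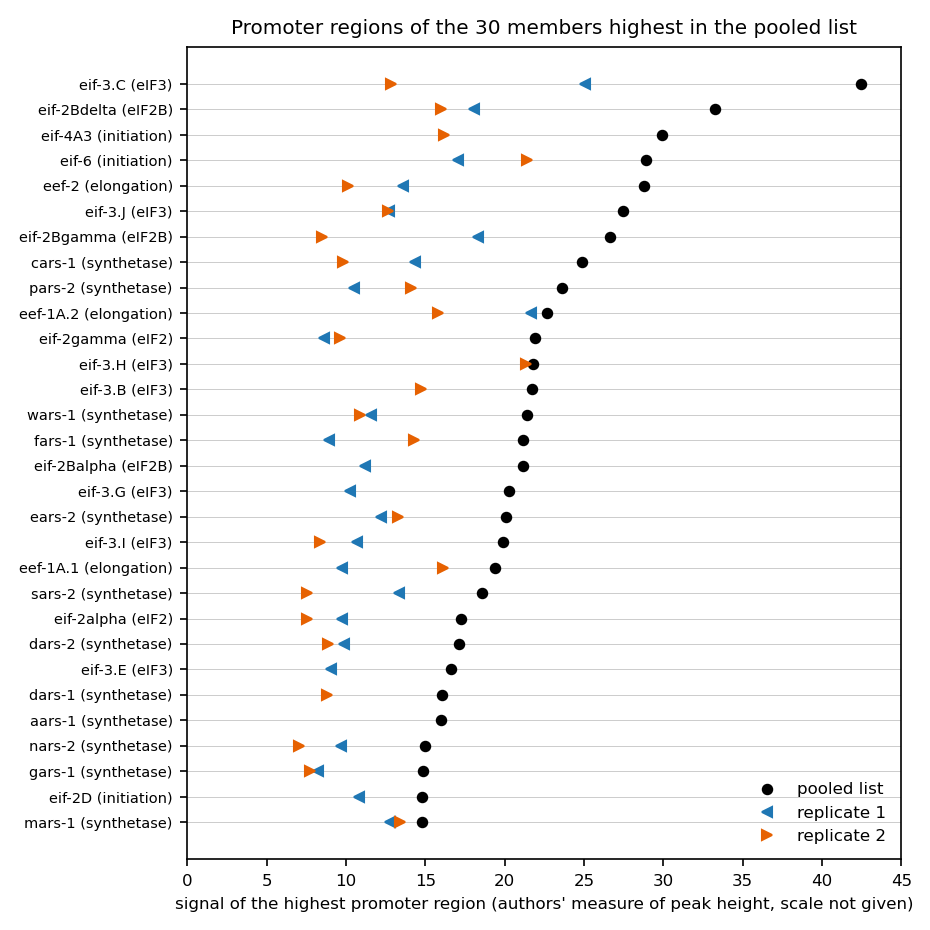
Signal of the highest promoter region (horizontal axis, the authors' measure of peak height, scale not given) in the pooled, replicate 1 and replicate 2 lists for the 30 members with the highest pooled signals. A missing triangle means no region in that list: eif-3.C leads at 42.5 in the pooled list, and eif-4A3, eif-3.H, eif-3.B, dars-1 and aars-1 have no replicate 1 region.

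The synthetases had many regions and few high ones. The highest was that of cars-1, for cysteine, with a pooled signal of 24.9 at rank 1129, 452 bp upstream. Its signal was 14.4 at rank 1996 in replicate 1 and 9.78 at rank 10374 in replicate 2, with summits 456 and 459 bp upstream. The 3 lists thus agree on the place of this site within 7 bp. For pars-2, a proline enzyme gene, the pooled signal was 23.6 at rank 1501, 232 bp downstream of the 5′ end, with a matching summit in replicate 1 at rank 7917. In replicate 2, the highest region of pars-2 lies 1857 bp upstream at rank 2103, and one at rank 2355 matches the pooled site.

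The next synthetase genes were wars-1, for tryptophan, at pooled rank 2658, fars-1, for phenylalanine, at 2795, and ears-2, for glutamate, at 3691. Their pooled signals were 21.4, 21.2 and 20.1. Below rank 5000 came sars-2 at 5449 and dars-2 at 7691, and then dars-1, aars-1, nars-2, gars-1 and mars-1 at ranks between 9920 and 13290. The remaining 11, lars-2, pars-1, kars-1, yars-1, lars-1, aars-2, fars-2, sars-1, vars-1, nars-1 and iars-1, ranked between 13314 and 28318. For aars-1, at pooled rank 10097, neither replicate list held a promoter region. Over the 23 synthetase genes with a pooled region, the median signal was 14.8 and the lowest 11.1. The 8 eIF3 genes with a region had a median of 21.0, and the 3 eIF2B genes one of 26.6.

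Replicate lists placed some synthetases higher than the pooled list did. The threonine enzyme gene tars-1 had a replicate 1 signal of 17.7 at rank 669, 581 bp upstream, and a replicate 2 signal of 7.36 at rank 22520, and had no pooled region. For iars-1, for isoleucine, the replicate 1 rank was 2120 and the pooled rank 28318, at summits 1698 and 1704 bp upstream. For yars-1, for tyrosine, the replicate 2 rank was 1441 and the pooled rank 15552. Regions of hars-1, iars-2 and qars-1 stood in both replicate lists, at ranks between 10476 and 27325, and one of yars-2 in replicate 2 only, at rank 20531. The sites of tars-1, iars-1 and yars-1 were therefore high in 1 library and low or missing in the pooled data. That of mars-1 stood higher in both libraries, at rank 3539 in replicate 1 and 2793 in replicate 2. Both summits lay within 100 bp of the pooled one, whose rank was 13290.

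Over the 43 members with a pooled region, signals lay between 10.8 and 42.5 with a median of 17.3. The best regions of other genes had a median of 15.3 and those of the cytosolic ribosomal protein genes one of 24.1. The authors' q-values of the 43 regions ran from 0.117 to 0.994, so none of them is below 0.05 in the pooled list, and the q-value did not follow the signal strictly. In replicate 1, the q-value of eif-3.C was 0.0370 and that of eef-1A.2 was 0.0657.

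The members' presence across the lists was also counted. A promoter region was found in all 3 lists for 28 members (44.4%), against 31.8% of other genes. No list held a region for 8 members (12.7%), against 21.3% of other genes. These 8 were ears-1, eef-1B.1, eif-2Bepsilon, eif-3.K, eif-3.L, fars-3, rars-1 and rars-2. Many worm genes are transcribed from an upstream gene's promoter as part of an operon, and such genes can lack a promoter at their own 5′ end. Operons were not annotated here, and their part in these counts was not tested.

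Agreement between the libraries on the exact site was partial. Of the 43 highest pooled regions of members, 12 had a summit within 100 bp in both replicate lists (27.9%), against 18.4% for other genes. A further 18 were matched in replicate 1 only, 10 in replicate 2 only and 3 in neither. Within rank 5000 the count was 10 of 20 (50%), against 47.6%, so at like ranks members and other genes lay close together. Within rank 1000, 4 of 7 were matched in both, which were the regions of eif-3.C, eef-2, eif-3.J and eif-2Bgamma, against 68.6% for other genes. Of the other 3, eif-2Bdelta was matched in replicate 1 only, and eif-4A3 and eif-6 in replicate 2 only.

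The replicate lists taken by themselves chose mostly different members at the top. Within the 1000 highest regions, replicate 1 had eef-1A.2, eef-1G, eif-2Bdelta, eif-2Bgamma, eif-3.C, eif-6 and tars-1. Replicate 2 had eef-1A.1, eif-3.H, eif-4A3 and eif-6. They shared 1 gene and 0 sites. At 5000 regions they shared 7 genes, 2 of them with summits within 100 bp, which were eif-3.C and eif-3.J. At 30000 regions they shared 35 genes, 13 of them with such summits. Across these 35 genes, Spearman's rho between the replicates' best signals was 0.39, against 0.16 across 7267 other genes and 0.43 across 50 cytosolic ribosomal protein genes. These are descriptions across genes of the same 2 libraries. At 30000 regions, 7267 of the 19922 other genes had a region in both replicate lists, beside 35 of the 63 members. The sharing of genes at 1000 and 5000 regions was not counted for other genes, nor that of summits between the replicate lists. Neither can therefore be called particular to the members.

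**Figure D3:**
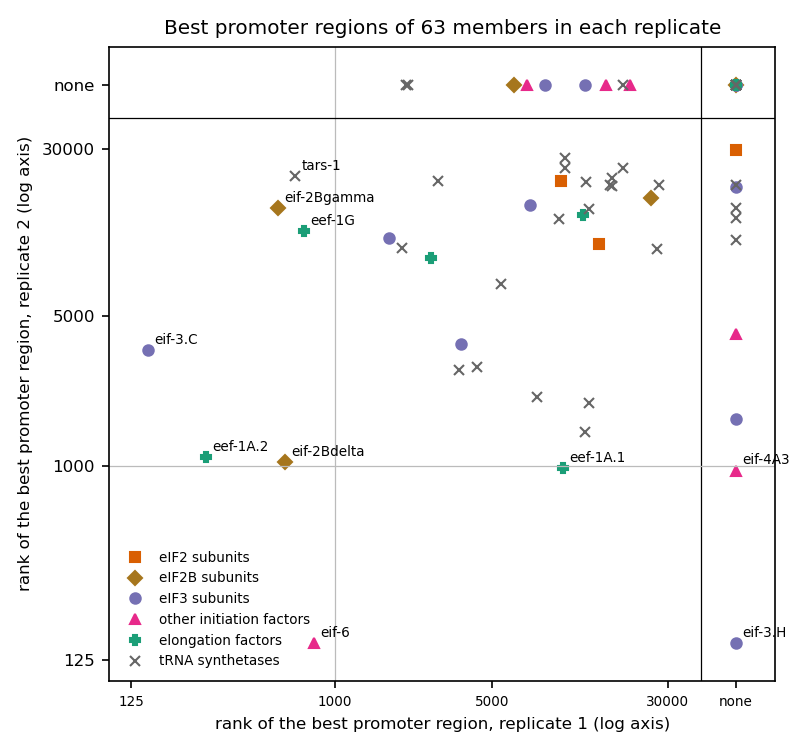
Rank of each member's highest promoter region in replicate 1 (horizontal log axis) and replicate 2 (vertical log axis), with the members that have no region in a list on the strips marked none. Grey lines mark rank 1000, and only eif-6 lies within it on both axes; marks of the 8 members in no list overlap in the corner.

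Distance to the 5′ end was described for the highest pooled region of each gene, without a test. The median pooled summit was 451 bp upstream for members and 661 bp upstream for other genes. Summits within 500 bp upstream were found for 19 of the 43 members (44.2%), against 25.9% of other genes. Among regions of rank up to 5000 the count was 12 of 20 (60%), against 30.6%. Among those of rank up to 1000 it was 5 of 7 (71.4%), against 42.3%, with eif-3.J and eif-4A3 outside. Up to rank 5000 the share was 69.4% for cytosolic ribosomal protein genes, 52.9% for mitochondrial ones and 41.7% for proteasome genes. Such closeness was therefore not particular to the members. Downstream summits were found for 6 of 43 (14.0%), against 17.3% of other genes.

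**Figure D4:**
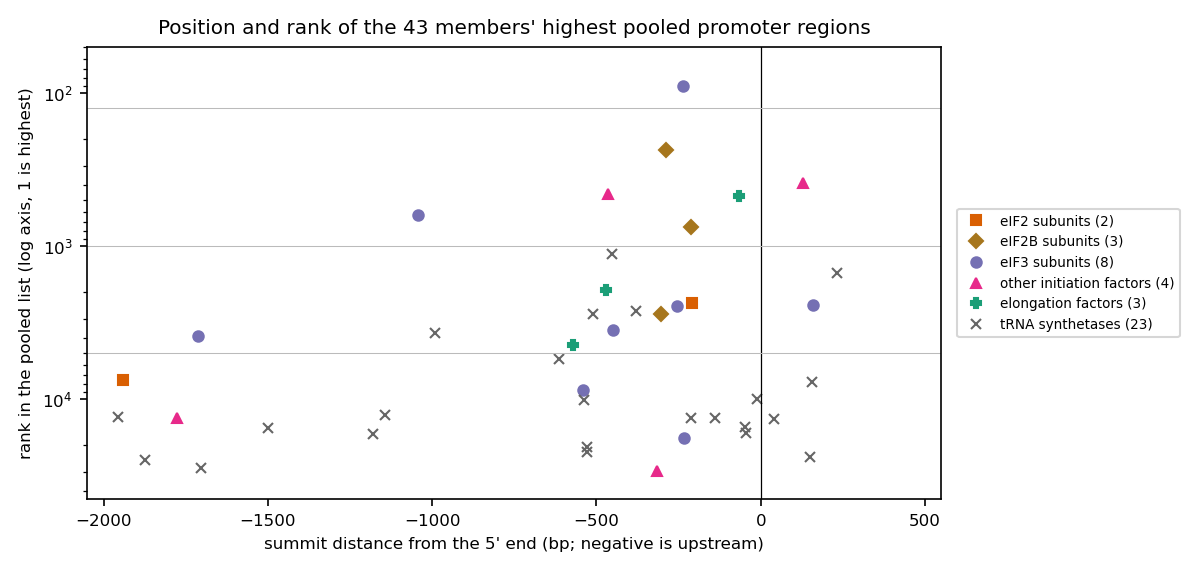
Summit distance from the 5′ end in bp (horizontal axis, negative upstream) and rank in the pooled list (vertical log axis, 1 highest at the top) for the 43 members with a pooled region, by group. Grey lines mark the last thresholded peak and ranks 1000 and 5000; of the 7 regions above rank 1000, 5 lie within 500 bp upstream.

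By the annotation of protein-coding genes, 25 of the 43 member summits were intergenic, 10 intronic, 6 in coding exons and 2 in 3′ untranslated regions. These places were not counted for other genes, so they cannot be called particular to the members. The region was also in the promoter window of another protein-coding gene for 22 of 43 (51.2%), against 39.3% for other genes. Among the genes whose window holds the summit, the member had the nearest 5′ end for 31 of 43 (72.1%), against 78.8%. Within rank 5000 this held for 18 of 20 (90%), against 74.8%, the exceptions being eif-6 and eef-1A.1. Each region was also given to the nearest 5′ end of any protein-coding gene, whatever its window. By that rule 16 members kept a region within rank 5000 (25.4%), against 9.999% of other genes. With shared regions the shares were 31.7% and 14.1%, so both fell. Besides eif-6 and eef-1A.1, the members lost were ears-2 and eif-3.I. Shared regions cannot be given to 1 gene from these data.

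In the pooled list, most members with a high region lay on chromosome I. Of its 21 members, 5 had a pooled region within rank 1000 (23.8%), against 5.25% of the other genes there. Within rank 5000 the count was 11 of 21 (52.4%), against 17.6%. The 5 genes were eif-3.C, eif-4A3, eif-6, eef-2 and eif-3.J, while eif-2Bdelta lies on chromosome V and eif-2Bgamma on chromosome II. Within rank 1000 the replicate lists gave fewer. Replicate 1 gave 2 of 21 members (9.52%), against 5.08% of the other genes there. Replicate 2 gave 3 of 21 (14.3%), against 4.31%. These were a minority of the 7 members within rank 1000 in replicate 1, and 3 of the 4 in replicate 2. Within rank 5000, replicate 1 gave 5 of 21 (23.8%), against 16.8%, and replicate 2 gave 8 of 21 (38.1%), against 15.8%.

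The motifs were counted on both strands within 100 bp of the summit, over the highest pooled regions of the 43 members and of 9068 distinct regions of other genes. TAATCC was found in 1 member region (2.33%), against 7.06% of the others, at eif-2Bdelta. CGCGCA was found in 5 (11.6%), against 3.43%, at eif-3.C, eif-2Bgamma, cars-1, eif-3.B and dars-1. ATGCGC was found in 4 (9.30%), against 3.35%, at eif-2Bgamma, eif-2gamma, dars-1 and eif-3.D. Its share was 10.3% for cytosolic ribosomal protein genes, 8% for proteasome genes and 6.67% for mitochondrial ribosomal protein genes. A raised ATGCGC share was thus not particular to the members. At eif-2Bgamma and dars-1, CGCGCA and ATGCGC overlap, so their counts are not separate. GACGCA was found in 1 (2.33%), against 3.96%, and ACGCAG in 0, against 3.90%.

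Among regions of rank up to 5000, CGCGCA was in 4 of 20 member regions (20%), against 5.43% of 2117 others. It was also in 4 of 17 regions of mitochondrial ribosomal protein genes (23.5%) and 2 of 12 of proteasome genes (16.7%). Of 35 regions of cytosolic ribosomal protein genes, 1 held it (2.86%). A raised CGCGCA share was thus not particular to the members. TAATCC was in 1 of 20 member regions (5%), against 7.56%. The median GC content of the 43 windows was 33.8%, against 32.3% for other genes and 35.8% for the cytosolic ribosomal protein genes. Its part in the motif counts was not tested.

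Other genes of protein synthesis were set beside the members. Of 33 further translation genes, 2 had a thresholded peak (6.06%), against 0.668% of other genes. Within rank 1000, 6 had a pooled region (18.2%), against 3.95%. Within rank 5000 there were 10 (30.3%), against 14.1%, and over all 23 (69.7%), against 56.2%. The highest was ifet-1, which codes for a translational repressor that binds the cap-binding protein, with a pooled signal of 78.0 at rank 16 and ranks 26 and 31 in the replicates. Its region is also in the promoter window of rps-1, a ribosomal protein gene. The gene drr-2, which codes for an eIF4H-like factor, had a pooled signal of 52.5 at rank 52, with rank 34 in replicate 1 and 5542 in replicate 2. Both stood above every member in the pooled list. The gene iff-2, coding for eIF5A, ranked 267, and pek-1, coding for a kinase that phosphorylates eIF2 alpha, ranked 840.

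Cytosolic ribosomal protein genes had a pooled region within rank 1000 in 28 of 82 cases (34.1%) and within 5000 in 36 (43.9%), against 11.1% and 31.7% for the members. Mitochondrial ribosomal protein genes had one within rank 1000 in 7 of 70 cases (10%), and proteasome genes in 5 of 33 (15.2%). At rank 1000 the members' pooled share thus lay between those of these sets. At rank 5000 the factors by themselves stood at 48.4%, against 43.9% of the cytosolic ribosomal protein genes. The replicate lists gave the other order, with 29.0% of factors against 46.3% in replicate 1 and 32.3% against 32.9% in replicate 2. None of these differences between gene sets was tested.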

How the data were processed

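Regions came from 4 lists that the authors deposited for ce11: 1 for each replicate, 1 pooled from both and 1 thresholded from these. In each list the authors give a signal (a peak height of unstated scale), a −log10 q-value and a summit offset. For the aligner, peak caller, control and threshold: not given in the sources used here. Lists in ce10 were not used. Gene positions were taken from the WBcel235 annotation of Ensembl release 115, and sequences from the RefSeq genome of the same build, whose chromosome lengths hold every region. A gene's 5′ end was its outermost annotated one. Regions were ranked by signal within a list, and a gene's highest region in its window was kept. The counting was tested on simulated data. Python 3.11.15, numpy 2.4.6, pandas 2.3.3 and matplotlib 3.10.9 were used.

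Members, gene lists and motifs were chosen with earlier results of these data known. Genes named were those with a thresholded region, a pooled rank up to 1000 or 1 of the 30 highest pooled signals, those in no list, eef-1A.1 and eef-2; others named were chosen after their values were seen. With 1 group of 2 libraries no test was run. Alternatives changed the promoter window, the 5′ end, the sharing and placing of regions, the replicate used, the matching distance and the motif window. Of 35 further translation gene symbols, 33 were found.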

Additional observations from a re-analysis of the deposited data

How the results depend on the processing

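Counting as many top regions as there are thresholded peaks, the list of either replicate alone gave 0 members, against 1 in the pooled list, since eif-3.C is not that high in either. Among the 1000 highest, the replicate lists gave 4 to 7 members, against 7, and replicate 2 shared only eif-4A3 and eif-6 with the pooled list. Over 30000 regions, a window of 500 bp on each side gave 27 members (42.9%, against 30.5% of other genes), where the wider one gave 43. Matching summits within 50 bp left 7 members matched in both replicates, against 12 within 100 bp. TAATCC was in 0 member regions within 50 bp of the summit, against 3.83% for other genes. Within 200 bp it was in 2 (4.65%), against 13.1% for other genes, where 100 bp had given 1. The other 21 values stayed within 1.5 times of those reported. The share of members was above that of other genes at 1000, 5000 and 30000 regions under every alternative run. Giving each region to its nearest 5′ end only left 30 members over 30000 regions (47.6%), against 43.9% of other genes. That gap is narrower than the 68.3% against 56.2% found with shared regions. No paired analysis was possible because there is 1 group and no test. Depth is unknown, so a missing region may mean low depth or no binding, and these cannot be told apart.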
